A study of Mus musculus with 12 samples.

Results

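The interleukin-1 family examined here comprised 9 genes, namely the ligand genes Il1a, Il1b, Il18 and Il33, the antagonist gene Il1rn, the binding protein gene Il18bp and the receptor genes Il1r1, Il1r2 and Il1rl1. The members were chosen by their symbols, with earlier results of these data known, and all 9 were among the 17734 genes of the expression table. The samples were bulk rectal RNA from 12 male C57BL/6 mice aged 8 to 10 weeks, in 4 groups of 3. Normal mice drank water, and colitis mice drank 2.5% dextran sulfate sodium (DSS), a polymer that injures the bowel lining, for 7 days. The 2 further groups, normal mice receiving berberine (BBR, a plant alkaloid) and, with DSS as well, colitis mice receiving BBR, were dosed by gavage at 100 mg/kg each day, for 6 days by the labels and for 7 by the methods of the study, and tissue was taken on day 8. No genotype beyond the strain was given for any group, DSS colitis is a chemical injury model, and the labels call the tissue colorectum. Summed levels of 10 colon epithelial marker genes were 10237 to 18903 over the 12 mice, none of them at 0 in any mouse, while 10 squamous markers of anal skin summed to 1.33 to 9.53.

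The IL-1 family consists of cytokines that alarm neighbouring cells and of proteins that hold them in check. IL-1 alpha, stored in cells and released on damage, and IL-1 beta, matured by inflammasome caspases mostly in myeloid cells, both signal through the IL-1 receptor type 1 and its partner chain, while the IL-1 receptor antagonist blocks that receptor and the type 2 receptor binds IL-1 without signalling. IL-18, kept in store by the gut epithelium, is trapped by IL-18 binding protein, and IL-33, a nuclear alarmin of stromal and epithelial cells, acts through the ST2 receptor, the product of Il1rl1, on mast cells, innate lymphoid cells and T cells.

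Values are FPKM, fragment estimates scaled for transcript length and for the number of mapped fragments, as read from column totals that differ between mice. TPM, a similar unit with 1 total for all mice over a complete gene set, cannot be told apart from it where genes are not rows of the table. Because of the scaling for length, levels of different genes can be compared within a mouse. Log2(FPKM + 0.1) was fitted by limma for the 12 mice together, and a gene was called where its p-value, adjusted by the Benjamini-Hochberg method over the 15315 genes whose mean reached 0.1 FPKM, was under 0.05. All 9 members passed that filter. Values of single mice are listed in the order of the mouse numbers, which run 1, 3, 4 for animals without DSS in either group, 1, 2, 4 for DSS alone and 2, 3, 4 for DSS with BBR. Log2 fold changes are given with their standard errors, have 3 mice in each group unless stated otherwise, and understate the change of genes near 0.1 FPKM. Where a group mean is called higher or lower, it is the mean of log2(FPKM + 0.1). Nothing in the labels says how the mice were housed or processed together, so the p-values measure the spread between these mice.

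Some libraries stood apart. The 4 mice numbered 4, 1 in each group, had column totals of 482194 to 504337 against 696286 to 765876 in the 8 mice numbered 1 to 3, and 872 to 1086 genes at 0 against 1332 to 1926. The labels name no batch. The colitis mouse receiving BBR numbered 4 also stood apart from its group mates: 8 of its 9 member values lay within the range of the 6 mice without colitis, 1 lay below it and none above. The neutrophil gene S100a8 was at 0.31 FPKM there, against 118.47 and 147.68 in its group mates, 24.90 to 336.29 in colitis mice and 0 in all 6 mice without colitis, and 7 smooth muscle markers summed to 3449, against 71.0 to 656 in the other 5 DSS-treated mice and 1638 to 4864 in the mice without colitis. Results that rest on this mouse are given with and without it, and why it differed was not tested. In colitis mice, the mouse numbered 2 had the highest value of all 12 mice for 7 members. Read depth, estimated from the steps between low values, puts 3 reads on a transcript of 2000 bases at 0.0784 to 0.118 FPKM, a limit that covers counting error only.

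Of these genes, Il1a, Il1b, Il1r2, Il18bp and Il33 were higher in DSS-treated mice over both BBR states, and the 250 bases before a transcription start of each are shown because these are the members called in that comparison. The sequences are from RefSeq on GRCm38.p6, a later build than the mm9 named in the submitters' processing notes, and read 5′ to 3′ on the strand of the gene. Capitals mark matches, on either strand, to a TATA box (TATAAA), an AP-1 motif (TGANTCA), a C/EBP motif (TTGCNNAA) or the kappaB consensus, and none of the marked matches overlap. For Il33, the second of its annotated starts is shown because its window holds 2 of these motifs.
Il1a, chr2:129309973-129310222, minus strand: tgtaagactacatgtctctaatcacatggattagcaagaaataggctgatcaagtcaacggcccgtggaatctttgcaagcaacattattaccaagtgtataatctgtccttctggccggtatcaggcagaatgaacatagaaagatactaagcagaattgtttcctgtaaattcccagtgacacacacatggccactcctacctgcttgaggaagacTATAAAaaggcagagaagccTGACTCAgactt
Il1b, chr2:129371140-129371389, minus strand: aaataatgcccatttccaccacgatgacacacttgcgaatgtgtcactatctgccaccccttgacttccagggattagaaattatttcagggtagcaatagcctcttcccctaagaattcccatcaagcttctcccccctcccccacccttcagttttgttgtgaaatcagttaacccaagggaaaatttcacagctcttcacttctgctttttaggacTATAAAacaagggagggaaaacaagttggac
Il1r2, chr1:40085843-40086092, plus strand: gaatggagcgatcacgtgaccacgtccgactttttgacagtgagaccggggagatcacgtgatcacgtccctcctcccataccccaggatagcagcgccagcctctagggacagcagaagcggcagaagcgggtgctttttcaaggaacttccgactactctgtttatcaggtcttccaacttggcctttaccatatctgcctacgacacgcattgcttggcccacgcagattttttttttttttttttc
Il18bp, chr7:102018233-102018482, minus strand: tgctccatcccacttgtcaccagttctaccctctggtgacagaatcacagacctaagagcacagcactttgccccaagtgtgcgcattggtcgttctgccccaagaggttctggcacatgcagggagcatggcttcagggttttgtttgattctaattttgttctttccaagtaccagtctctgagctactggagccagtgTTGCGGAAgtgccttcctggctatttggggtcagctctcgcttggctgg
Il33, chr19:29945540-29945789, plus strand: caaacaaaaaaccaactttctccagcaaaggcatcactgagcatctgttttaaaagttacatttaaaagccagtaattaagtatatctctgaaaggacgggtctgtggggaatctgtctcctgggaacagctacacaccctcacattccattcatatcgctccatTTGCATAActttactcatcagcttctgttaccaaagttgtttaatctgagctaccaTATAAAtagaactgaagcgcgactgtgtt

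The IL-1 ligand genes Il1a and Il1b each had a TATA box on the gene's strand, 32 and 31 bases before the start. A TATA box beginning 24 to 36 bases before the start on the same strand was present in 1.775% of the 32851 annotated start windows of this length, and at any place in 12.4%. The Il1a window held an AP-1 motif 12 bases before the start, found anywhere in 6.75% of windows. The Il18bp window held a C/EBP motif 49 bases before the start, where 9.56% of windows have a C/EBP motif. The Il33 window, chosen for its motifs and so not set against these shares, held a TATA box 29 bases and a C/EBP motif 85 bases before the second start, while the window of the first start held a TATA box 203 bases before it and no other of the 4 motifs. The Il1r2 window held none of the 4 motifs. Among 14 windows of the 9 members, the kappaB consensus was found in 1, before the second start of Il1r1, against 3.90% of all windows, and these matches describe letters in a window, not bound sites.

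The IL-1 ligand genes were scarce in normal mice and among the genes with higher levels in colitis mice. Il1b was at 1.03, 0.24 and 0.49 FPKM in normal mice and at 24.35, 32.54 and 11.60 in colitis mice. All colitis mice lay above all normal mice, and Il1b was 5.11 ± 1.01 higher on the log2 scale (limma with Benjamini-Hochberg adjustment, adjusted p = 0.0392). Il1a, on the same chromosome, was at 0.15, 0.19 and 0.22 FPKM in normal mice and at 1.89, 3.21 and 1.79 in colitis mice. These groups did not overlap either, and the log2 fold change of Il1a was 3.02 ± 0.55 (limma, Benjamini-Hochberg adjusted p = 0.0289). In normal mice Il1a was near the value that 3 reads give on its transcript, 0.0795 to 0.119 FPKM. On GRCm38 (GENCODE vM21), Il1a lies on the minus strand at chr2:129299610-129309972 and Il1b at chr2:129364570-129371139, and exons of each overlap a gene on the opposite strand, Gm14023 and Il1bos, which are not rows of the table. Whether the counting used strand is not given in the sources used here.

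The antagonist gene Il1rn, at chr2:24336853-24351494 on the plus strand, was expressed above Il1a and Il1b in every mouse. It was at 50.91, 81.96 and 38.83 FPKM in normal mice and 75.11, 200.81 and 53.92 in colitis mice, with overlapping groups and a log2 fold change of 0.77 ± 0.53 (limma, Benjamini-Hochberg adjusted p = 0.381), which was 0.22 to 1.17 with 1 mouse left out, the lowest without the colitis mouse numbered 2. The deposited value sums the secreted and intracellular forms of the antagonist. The decoy receptor gene Il1r2, at chr1:40074079-40125231, was at 0.25, 0.42 and 0.39 FPKM in normal mice and 6.12, 17.90 and 2.34 in colitis mice. The groups did not overlap, but the log2 fold change of 3.86 ± 0.84 missed the limit narrowly (limma, Benjamini-Hochberg adjusted p = 0.0533). With a block for the mice numbered 4 Il1r2 was called (limma, Benjamini-Hochberg adjusted p = 0.0173). The signalling receptor gene Il1r1, its neighbour at chr1:40225080-40317257, was at 5.74, 3.71 and 5.20 FPKM in normal mice and 2.73, 7.08 and 5.63 in colitis mice. The Il1r1 ranges overlapped, and the log2 fold change was −0.01 ± 0.45 as deposited and 0.38 after quantile normalization between mice.

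Of the IL-18 pair, the ligand gene was the most abundant member and its binding protein the one that rose. Il18, at chr9:50554827-50581840, was at 395.30, 229.68 and 171.76 FPKM in normal mice and 469.30, 153.27 and 192.98 in colitis mice. Both the highest and the lowest of these 6 values were in colitis mice, and the log2 fold change of Il18 was −0.06 ± 0.43 (0.28 after centring each mouse on its median). Il18bp, at chr7:102014885-102018690 on the minus strand, was at 3.77, 4.93 and 5.25 FPKM in normal mice and 36.73, 68.78 and 48.75 in colitis mice. The groups lay far apart, and Il18bp was 3.41 ± 0.69 higher on the log2 scale (limma, Benjamini-Hochberg adjusted p = 0.0439). Exons of Il18bp overlap Numa1 on the opposite strand, which was at 11.97 to 24.58 FPKM over the 12 mice, with its 2 lowest values in the 2 mice where Il18bp was highest.

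The IL-33 pair was higher in colitis mice by point estimate and did not pass the limit. Il33, at chr19:29925114-29960718, was at 1.97, 1.44 and 3.05 FPKM in normal mice and 6.84, 28.79 and 6.47 in colitis mice. The groups did not overlap, and the log2 fold change was 2.35 ± 0.73 (limma, Benjamini-Hochberg adjusted p = 0.116), or 1.65 without the colitis mouse numbered 2. Il1rl1, at chr1:40429570-40465415, was at 0.70, 2.26 and 0.69 FPKM in normal mice and 5.98, 40.73 and 1.89 in colitis mice. A normal mouse exceeded 1 colitis mouse, and the log2 fold change of Il1rl1 was 2.79 ± 1.19 (limma, Benjamini-Hochberg adjusted p = 0.206), or 1.61 without the colitis mouse numbered 2. Markers of mast cells, a cell type that carries ST2, summed to 11.9 to 24.1 FPKM in colitis mice and 5.01 to 7.70 in normal mice, with no overlap. The normal mouse receiving BBR numbered 3, at 16.28, lay within the range of the colitis mice. Of 6 tested mast cell markers 4 were higher and 2 lower in colitis mice by point estimate, with 0 called, and their part in the Il1rl1 difference was not tested. The value sums the membrane receptor and its soluble decoy form.

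**Figure D1:**
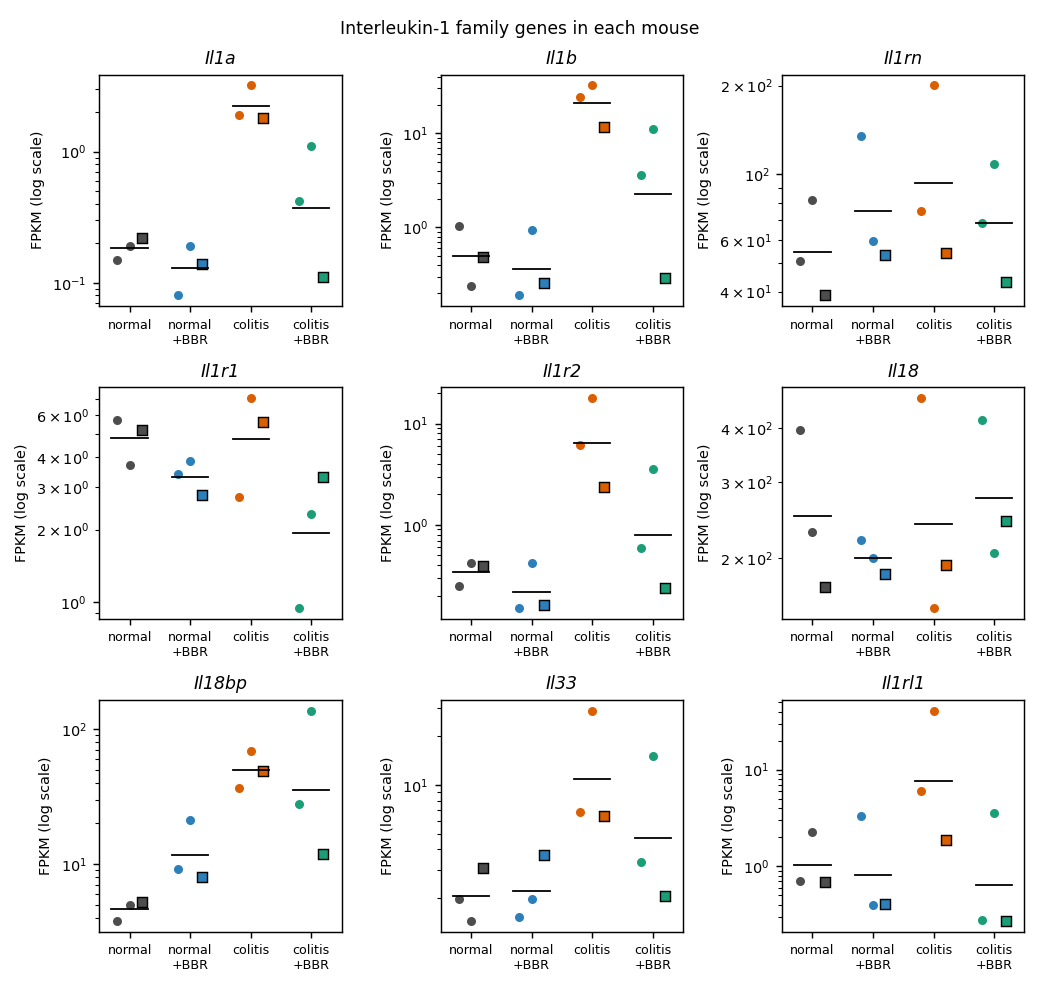
FPKM of the 9 members in each mouse, on log axes, for the 4 groups, with 1 point per mouse, squares for the mice numbered 4 and a line at the geometric mean of each group. Il1a, Il1b, Il1r2, Il18bp and Il33 in all 3 colitis mice lie above the normal mice, while the square of the colitis mice receiving BBR lies level with the mice without colitis in the same panels.

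In all, 3 of the 9 members were called between colitis and normal mice, all higher, where 1.08% of all tested genes were called and 0.653% were called higher. At an unadjusted p under 0.05, 6 members were higher, against 21.4% of all genes in either direction and 5.56% higher. The groups did not overlap for 5 members, all higher in colitis mice, against 29.3% of all genes without overlap and 7.1% without overlap and higher. The median log2 fold change of the members was 2.79, against −0.32 over all tested genes, a shift that was −0.05 after quantile normalization. Because the members were chosen with earlier results of these data known, these shares describe the members and do not test the family. The calls depended on the mice. Leaving out any mouse of the comparison other than the colitis mouse numbered 4, no member was called, and over these fits Il1a, Il1b and Il18bp had limma adjusted p (Benjamini-Hochberg) of up to 0.144, 0.151 and 0.177, with log2 fold changes of 2.77 to 3.13, 4.69 to 5.56 and 3.17 to 3.62. Without the colitis mouse numbered 4, 3 members were called, namely Il1a, Il1b and Il1r2, among 211 genes in all. Between the single colitis and normal mice numbered 4, the log2 difference was 2.56 for Il1a, 4.31 for Il1b, 2.32 for Il1r2, 3.19 for Il18bp and 1.06 for Il33, and among the mice numbered 1 to 3 it was 3.25, 5.51, 4.63, 3.51 and 2.99.

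Of 11 neutrophil markers, 3 were called higher in colitis mice. Without Ly6g, which was at 259 to 793 FPKM even in mice without colitis, the neutrophil markers summed to 48.3 to 500 FPKM in colitis mice and 0.43 to 3.29 in normal mice. S100a8 was at 0 in every mouse without colitis. In bulk tissue, more cells of a type and more RNA per cell cannot be told apart, and the part of neutrophils in the Il1b, Il1a and Il1r2 differences was not tested. Of 11 monocyte and macrophage markers, cells that also make IL-1 beta, none was called as deposited, although 4 were higher at an unadjusted p under 0.05 and Ccr2, a chemokine receptor gene of monocytes, was called higher after quantile normalization (2.40) and after median centring (2.31). The sum was 156 to 458 FPKM in colitis mice and 143 to 204 in normal mice, the highest in the colitis mouse numbered 2. All 7 smooth muscle markers were lower in colitis mice by point estimate, with none called and a sum of 71.0 to 656 FPKM against 1638 to 3059, and the part of these cells in the differences was not tested either.

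To ask whether BBR altered the family in colitis, colitis mice receiving BBR were compared with colitis mice. Il1b was at 3.58, 11.22 and 0.29 FPKM with BBR, against 24.35, 32.54 and 11.60 without it, so that the highest mouse with BBR lay just below the lowest without. The log2 fold change of Il1b was −3.06 ± 1.01, with an unadjusted p of 0.0107 and an adjusted p of 0.568 by limma and the Benjamini-Hochberg method. Il1a was at 0.42, 1.11 and 0.11 FPKM with BBR, again below all colitis mice without it, with a log2 fold change of −2.19 ± 0.55 (limma, unadjusted p = 0.00184, Benjamini-Hochberg adjusted p = 0.477).

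The receptor genes were lower by point estimate with BBR, with overlapping groups. Il1r2 was at 0.59, 3.52 and 0.24 FPKM with BBR, and the second of these mice exceeded the lowest colitis mouse, at 2.34. The log2 fold change of Il1r2 was −2.78 ± 0.84 (limma, unadjusted p = 0.00649, Benjamini-Hochberg adjusted p = 0.512). Il1r1 was at 0.94, 2.33 and 3.33 FPKM with BBR, with a log2 fold change of −1.25 ± 0.45 (limma, unadjusted p = 0.0173, Benjamini-Hochberg adjusted p = 0.631). All 8 fibroblast markers were also lower by point estimate with BBR in colitis (7 of 8 after quantile normalization), with none called and a sum of 178 to 270 FPKM against 185 to 724, and their part in the Il1r1 difference was not tested. Il1rl1 was at 0.28, 3.58 and 0.27 FPKM with BBR, and its log2 fold change was −3.30 ± 1.19 (limma, unadjusted p = 0.0171, Benjamini-Hochberg adjusted p = 0.631). The mast cell markers summed to 5.78 to 10.8 FPKM with BBR and 11.9 to 24.1 without it in colitis. Of the 6 tested, 5 were lower and 1 higher by point estimate, with 0 called, while Fcer1a and Ms4a2 were at or under 0.17 FPKM in every mouse. The part of mast cells was not tested.

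The antagonist, binding protein and remaining ligand genes overlapped more. Il1rn was at 68.25, 108.80 and 43.18 FPKM in colitis mice receiving BBR, where the last of these, the mouse numbered 4, lay below all colitis mice. Il18bp was at 27.79, 137.06 and 11.78 FPKM, so that this group held the highest value of all 12 mice as well as 2 that lay below every colitis mouse. Il33 was at 3.35, 15.08 and 2.07 FPKM and Il18 at 417.13, 205.93 and 244.34. The log2 fold changes were −0.45 ± 0.53 for Il1rn, −0.48 ± 0.69 for Il18bp, −1.18 ± 0.73 for Il33 and 0.20 ± 0.43 for Il18, with limma adjusted p (Benjamini-Hochberg) of at least 0.939.

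None of the 9 members was called with BBR in colitis by limma, where 0% of all tested genes were called and the smallest adjusted p over all genes was 0.0844. At an unadjusted p under 0.05, 5 members were lower, against 6.39% of all genes in either direction and 5.2% lower. The groups did not overlap for 2 members, Il1a and Il1b, where 7.08% of all genes did not and 5.66% were lower without overlap. In total, 8 members had lower mean log2 values with BBR and 1, Il18, a higher one, where 62% of all genes were lower. The median log2 fold change of the members was −1.25 against −0.09 over all genes. Without logs, the mean of Il18bp was higher with BBR, at 58.9 against 51.4 FPKM. Without the colitis mouse receiving BBR numbered 4, the log2 fold change was −1.71 for Il1b, −1.55 for Il1a, −2.04 for Il1r2, −1.62 for Il1r1, −2.74 for Il1rl1, −0.60 for Il33, −0.12 for Il1rn, 0.29 for Il18 and 0.31 for Il18bp, and no member was called. Without the mouse numbered 3 of that group, only Il1a was called among the members, at −2.81 (limma, Benjamini-Hochberg adjusted p = 0.0361), as were 58 genes in all. Between the single mice numbered 4, the log2 difference was −4.91 for Il1b and −3.17 for Il1a, and among the mice numbered 1 to 3 it was −2.13 and −1.69. Neutrophil markers without Ly6g summed to 222, 200 and 3.13 FPKM in the colitis mice receiving BBR, against 48.3 to 500 in colitis mice. All 11 neutrophil markers had lower means with BBR in colitis, 4 of them at an unadjusted p under 0.05 by limma, with a median of −1.94 and none called. Without the colitis mouse receiving BBR numbered 4, 10 had lower means and the median was −0.37. The part of neutrophils in the Il1a and Il1b differences was not tested. All 11 monocyte and macrophage markers had lower means with BBR in colitis, 9 of them at an unadjusted p under 0.05, with a median log2 fold change of −1.19 and none called by limma. These markers summed to 88.6 to 131 FPKM with BBR against 156 to 458 without it, with no overlap, and none was at 0 in either group. Of the 11, 10 had lower means without the colitis mouse receiving BBR numbered 4, with a median of −0.98. The 6 tested T cell markers were lower too by point estimate, with a sum of 1.5 to 5.37 FPKM against 4.78 to 9.35 and none called, and 4 of the 6 were lower without the mouse numbered 4, with a median of −0.78 in place of −1.19. The part of either cell type in the differences was not tested.

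In normal mice, BBR left no member past the limit. Of all tested genes, 0% were called by limma and 1.36% had an unadjusted p under 0.05, and no member was among either. Il18bp was at 9.14, 21.26 and 8.04 FPKM in normal mice receiving BBR, all above the 3.77 to 5.25 of normal mice. This was the only member whose groups did not overlap, where 9.62% of all genes did not overlap and 4.17% were higher without overlap, and its log2 fold change was 1.32 ± 0.69 (limma, unadjusted p = 0.0829, Benjamini-Hochberg adjusted p = 1). Il1b was at 0.19, 0.94 and 0.26 FPKM and Il1a at 0.08, 0.19 and 0.14, over the same low range as without BBR. Il1rn was at 135.13, 59.59 and 53.06 FPKM, and the remaining log2 fold changes lay between −0.52 for Il1r1 and 0.47 for Il1rn.

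The difference between colitis and normal mice was also tested among the mice receiving BBR, with no mouse shared. Of all tested genes 0.0392% were called in this comparison, and 0 of the 9 members by limma. At an unadjusted p under 0.05, 2 members were higher, against 19.7% of all genes in either direction and 2.37% higher: Il1b, at 2.41 ± 1.01 (limma, Benjamini-Hochberg adjusted p = 0.239), and Il18bp, at 1.61 ± 0.69 (limma, Benjamini-Hochberg adjusted p = 0.244). The groups overlapped for every member, where 20.2% of all genes did not. The mouse that made the groups overlap for Il1b, Il1a and Il1r2 was the one numbered 4, with 0.29, 0.11 and 0.24 FPKM. Without it, 3 members were called, as were 2255 genes in all, with log2 fold changes of 3.76 for Il1b, 1.77 for Il1a and 2.40 for Il18bp (limma, Benjamini-Hochberg adjusted p of 0.0172, 0.0339 and 0.0314). Il1r1 had a log2 fold change of −0.74 ± 0.45 here.

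Over both BBR states, 6 mice with against 6 without DSS, 5 members rose in colitis. Il1b rose by 3.76 ± 0.71, Il1r2 by 2.71 ± 0.59, Il18bp by 2.51 ± 0.49, Il1a by 2.08 ± 0.39 and Il33 by 1.70 ± 0.51 on the log2 scale, with limma adjusted p (Benjamini-Hochberg) of 0.0157, 0.0228, 0.0171, 0.0151 and 0.0478. Of all tested genes 14.3% were called in this comparison, 2.85% higher. After quantile normalization 719 of 1278 called genes were higher, against 437 of 2188 as deposited, and these 5 members were called under both. No member separated all 6 mice from the other 6, where 5.78% of all genes did. Il1rl1, Il1rn, Il18 and Il1r1 were not called, with log2 fold changes of 1.27, 0.32, 0.20 and −0.37, the last of which was 0.11 after quantile normalization. Il1a, Il1b and Il18bp were called with each of the 12 mice left out in turn. Il1r2 was not called without the normal mouse numbered 1 or 3, the normal mouse receiving BBR numbered 4 or the colitis mouse numbered 1, with limma adjusted p (Benjamini-Hochberg) of up to 0.0602 and log2 fold changes of 2.22 to 3.07 over the 12 fits. Il33 was called only without the mouse numbered 4 of either colitis group, with limma adjusted p (Benjamini-Hochberg) of up to 0.101 and log2 fold changes of 1.29 to 1.99. Without the colitis mouse receiving BBR numbered 4, the same 5 members were called, where the count over all genes was 5943 in place of 2188, with 781 higher in place of 437. Of the 11 neutrophil markers 8 rose in this comparison. Of the 7 smooth muscle markers 6 were called lower as deposited, 0 after quantile normalization and 1 after centring on the median. All 7 endothelial markers were lower by point estimate, 3 of them called (Kdr, Pecam1 and Tek), 7 without the colitis mouse receiving BBR numbered 4 and 1 after quantile normalization or median centring, with a sum of 5.25 to 16.0 FPKM in DSS-treated mice and 20.9 to 26.2 in the others. Of 11 monocyte and macrophage markers 2 were called higher (Ccr2 and Cd68) and 1 lower (Ly6c2). The part of any of these cell types in the rise of the members was not tested.

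**Figure D2:**
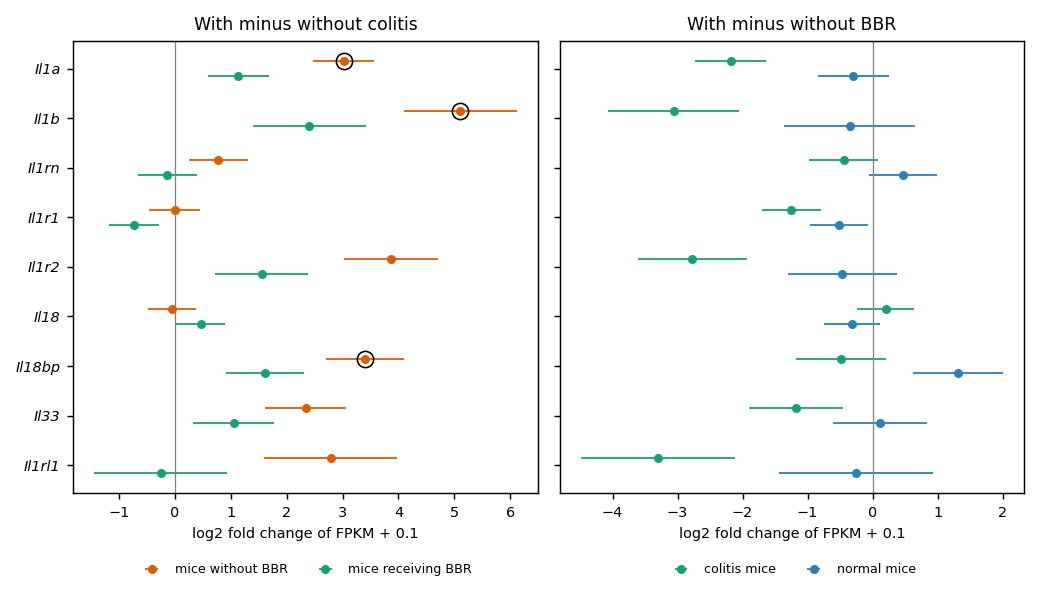
Log2 fold changes of the 9 members for the presence of colitis (left, without and with BBR) and for BBR (right, in colitis and in normal mice), with bars of 1 standard error and rings around values with an adjusted p under 0.05. Rings mark Il1a, Il1b and Il18bp in mice without BBR, and on the right 8 of the 9 members in colitis mice lie below 0.

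Whether the BBR difference itself differed between colitis and normal mice was tested as an interaction. None of the 9 members passed by limma, nor did any gene (0%). At an unadjusted p under 0.05 only Il1a was found, at −1.89 ± 0.77 (limma, Benjamini-Hochberg adjusted p = 1), where 2.42% of all genes were. The estimate was negative for 8 members, against 58.9% of all genes, and positive for Il18, and without the colitis mouse receiving BBR numbered 4 that of Il1a was −1.25, which missed an unadjusted limit of 0.05 by limma.

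Ratios of FPKM within a mouse do not depend on the scaling between mice, but they were tested as differences of log2(FPKM + 0.1), and for low values the added 0.1 does. Each ratio sets a member called over both BBR states against one that was not, in the same 12 mice. The ratio tests are therefore not separate from those calls. The ratio of Il1rn to Il1b was 49.4, 79.2 and 342 in normal mice and 3.08, 4.65 and 6.17 in colitis mice, in rising order. In mice receiving BBR it was 63.4, 204 and 711 without colitis and 9.70, 19.1 and 149 with it. The antagonist transcript thus stayed above the ligand transcript in all 12 mice, and the ratio was lower by 3.44 on the log2 scale in DSS-treated mice (exact two-sided permutation test within BBR states, p = 0.01, Benjamini-Hochberg adjusted over the 3 ratios 0.015). The mouse with 149 was the one numbered 4, and without it the log2 difference was −3.95. Il1b was at 0.19 to 0.29 FPKM in the mice with ratios of 149, 204, 342 and 711, where 3 reads on its transcript give 0.117 to 0.176. These large ratios thus rest on few reads. With 0.01 added in place of 0.1 the difference was −3.68, and with 1 added it was −2.37 (exact permutation test, Benjamini-Hochberg adjusted p of 0.015 and 0.0225).

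The decoy to signalling receptor ratio changed in the other direction. The ratio of Il1r2 to Il1r1 was 0.0436, 0.0750 and 0.113 in normal mice, 0.0440 to 0.109 in normal mice receiving BBR, and 0.416, 2.24 and 2.53 in colitis mice. It was 0.0721, 0.628 and 1.51 in colitis mice receiving BBR, where the mouse numbered 4 was again the lowest. Of the 3 colitis mice 2 had more decoy than signalling receptor transcript, and the log2 difference over both BBR states was 3.08 (exact two-sided permutation test, p = 0.01, Benjamini-Hochberg adjusted 0.015). The ratio of Il18bp to Il18 was 0.00954 to 0.0306 in normal mice, 0.0416 to 0.106 in normal mice receiving BBR, 0.0783 to 0.449 in colitis mice and 0.0482 to 0.666 in colitis mice receiving BBR. Il18 thus stayed above its binding protein in every mouse, while the log2 difference in their ratio was 2.31 (exact two-sided permutation test, p = 0.025, Benjamini-Hochberg adjusted 0.025), a call that was lost, with adjusted p of 0.055 to 0.06, without the normal mouse numbered 1 (2.07), the normal mouse receiving BBR numbered 1 (2.19) or 4 (2.21) or the colitis mouse receiving BBR numbered 3 (1.71). Without the colitis mouse receiving BBR numbered 4, the log2 difference was 3.63 for the decoy ratio and 2.66 for the binding protein ratio. With 1 added in place of 0.1, the decoy ratio differed by 1.88 and the binding protein ratio by 2.16, both still called. Within a single BBR state, with 3 mice on each side, p = 0.1 is the smallest that an exact permutation test can give. All 3 ratios reached it in mice without BBR. In mice receiving BBR, p was 0.2 for the antagonist ratio, 0.2 for the decoy ratio and 0.5 for the binding protein ratio by the same test.

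**Figure D3:**
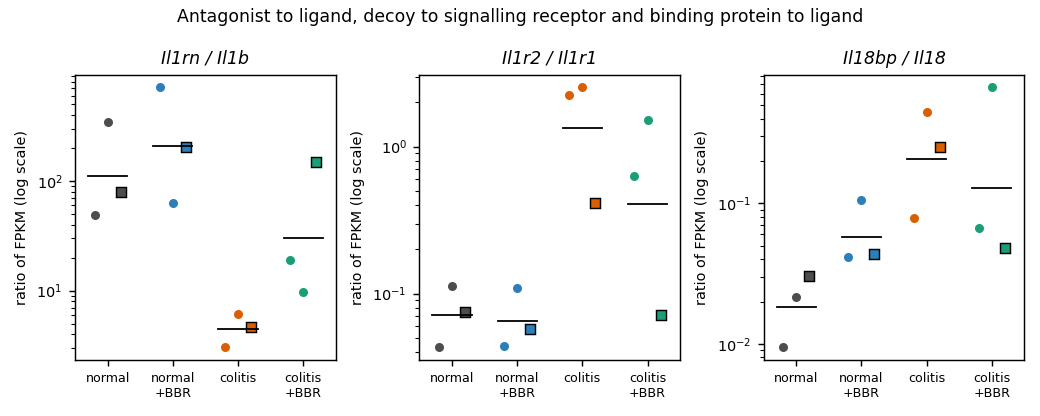
Ratios of FPKM within each mouse on log axes, for the antagonist to IL-1 beta, the decoy to the signalling IL-1 receptor and the IL-18 binding protein to IL-18, with squares for the mice numbered 4 and lines at geometric means. The first ratio is 3.08 to 6.17 in colitis mice and at least 49.4 in mice without colitis.

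Across the family, the order of levels in normal mice ran from Il18 (172 to 395 FPKM) and Il1rn (38.8 to 82.0) to Il1r1 (3.71 to 5.74) and Il18bp (3.77 to 5.25), then Il33 (1.44 to 3.05), Il1rl1 (0.69 to 2.26), Il1b (0.24 to 1.03), Il1r2 (0.25 to 0.42) and Il1a (0.15 to 0.22). Il1r1 and Il18bp did not differ beyond their spread, nor did Il33 and Il1rl1, Il1rl1 and Il1b, or Il1b and Il1r2. In colitis mice Il18bp, at 36.7 to 68.8 FPKM, overlapped Il1rn, at 53.9 to 201, and Il1b, at 11.6 to 32.5, lay above Il1r1, at 2.73 to 7.08, in every mouse.

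The genes most like each member were found by the root mean square difference of their centred log2 values over the 12 mice, among 11943 genes with a mean of at least 1 FPKM. This left out Il1a, whose mean was lower. Il1r2 was closest to Il6, a cytokine gene induced by IL-1, at 0.473, where its own spread was 1.94, and then to Tnfrsf23 and Krtap6-5. Il1b was closest to Mmp3, a matrix metalloproteinase gene, at 0.671, followed by Cck and Dmgdh. Il18bp was closest to the chemokine gene Ccl7, at 0.457, and to Zbp1 and Ccl12. Il33 was closest to Tgm2, Rel and Ttyh1, at 0.445 to 0.488. Il1rl1 had the largest differences, with Emp1, Cxcl9 and Krt13 at 0.821 to 0.966, where its own spread was 1.94. The members with little spread, Il1rn, Il1r1 and Il18, were closest to Frk, Lpcat2 and Slc31a1, at 0.336, 0.290 and 0.262. Their own spreads were 0.673, 0.708 and 0.510, so these smaller differences are not closer matches in relation to spread than that of Emp1 with Il1rl1 for Il1rn and Il18. Between members the smallest differences were those of Il1a with Il33, at 0.641, and with Il1r2, at 0.646.

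The other genes of the pathway were examined as lists, which were chosen with results of these data known. Of the other ligands, only Il1f9 passed the filter on low values, at 0 to 1.01 FPKM, with a log2 fold change of 1.53 ± 0.85 between colitis and normal mice, and Il1f6 was at 0 to 0.22. Of 5 other receptors tested, none was called between colitis and normal mice, with a median of 0.10. Over both BBR states Il1rap, the partner chain shared by the IL-1 and IL-33 receptors, was at 3.32 to 4.17 FPKM in the 6 mice without colitis and 1.35 to 2.73 in the 6 with it. These ranges did not overlap, and Il1rap was called lower, at −0.69 ± 0.20 (limma, Benjamini-Hochberg adjusted p = 0.0439), against a median of −0.36 over all genes. After quantile normalization Il1rap was at −0.21 and no longer called (limma, Benjamini-Hochberg adjusted p = 0.432). The IL-18 receptor genes Il18r1 and Il18rap were at 0 to 0.52 and 0.03 to 1.02 FPKM, the IL-36 receptor gene Il1rl2 at 0.21 to 2.39, Il1rapl1 at or under 0.02, and Sigirr, a brake on IL-1 receptor signalling, at 11.9 to 23.0, with none of them called as deposited. Il1rl2 without the colitis mouse receiving BBR numbered 4 was called lower over both BBR states (−1.34) and between the groups receiving BBR (−1.87).

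Of 18 genes of receptor signalling none was called between colitis and normal mice. In the values as deposited, over both BBR states, only Peli1, a ubiquitin ligase of the pathway, was called, at −0.48 ± 0.11 (limma, Benjamini-Hochberg adjusted p = 0.0280), with 23.7 to 29.8 FPKM without colitis and 15.7 to 22.1 with it. After quantile normalization Peli1 was at −0.28 and not called (limma, Benjamini-Hochberg adjusted p = 0.156). Under that scaling Ikbkb, a kinase gene of the NF-kappaB pathway, was called higher (0.60), and median centring added Nfkbia, the gene of an NF-kappaB inhibitor (0.95). The calls were 2 higher (Ikbkb and Nfkbia) and 5 lower (Irak1, Irak2, Peli1, Tab1 and Tab2) without the colitis mouse receiving BBR numbered 4, in a fit that called 5943 of all genes. Of the 18, 12 had lower means as deposited and 6 after quantile normalization. The adaptor gene Myd88 was at 15.2 to 27.3 and 20.3 to 29.5 FPKM, and was not called. The other signalling genes with the largest log2 fold changes between colitis and normal mice were Irak2 (−1.03), Tab1 (−0.71) and Traf6 (0.61).

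Of 12 tested genes of cytokine maturation and release none was called between colitis and normal mice, although 7 were higher at an unadjusted p under 0.05 and the median was 0.91. Over both BBR states 2 were called higher, or 7 without the colitis mouse receiving BBR numbered 4. Gsdmd, the pore-forming protein that lets IL-1 beta out of cells, was at 115 to 137 FPKM without colitis, 239 to 380 in colitis mice, and 264, 395 and 136 where BBR was given in colitis, the last of these in the mouse numbered 4. It rose by 1.14 ± 0.24 on the log2 scale (limma, Benjamini-Hochberg adjusted p = 0.0204). Casp4, a caspase that cleaves gasdermin D, rose by 1.33 ± 0.33 (limma, Benjamini-Hochberg adjusted p = 0.0308). Casp1, which matures IL-1 beta and IL-18, was at 84.4 to 177 FPKM over the 12 mice, with a log2 fold change of 0.01 over both states. Nlrp3, an inflammasome sensor, was at 0.02 to 0.13 FPKM without colitis and 0.23, 0.82 and 0.47 in colitis mice, a log2 difference of 1.80 ± 0.45 (limma, Benjamini-Hochberg adjusted p = 0.0699). Of the 12 genes, 9 were higher and 3 lower in colitis mice than in normal mice by point estimate. The lowest was Nlrp6, at −1.69, with 82.63, 102.75 and 87.62 FPKM in normal mice and 64.29, 4.87 and 69.92 in colitis mice.

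Among genes that IL-1 is known to induce, 7 rose in colitis mice. Of 16 tested IL-1 response genes, all 16 had higher means in colitis mice, 7 were called (Ccl2, Csf3, Cxcl1, Cxcl2, Il6, Mmp3 and Saa3), and the median log2 fold change was 4.18, against −0.32 over all genes. The neutrophil growth factor gene Csf3 was at 0 FPKM in all 6 mice without colitis and at 2.03, 2.76 and 1.44 in colitis mice, and its log2 fold change of 4.40 ± 0.43 depends on the added 0.1 (limma, Benjamini-Hochberg adjusted p = 0.00252). The neutrophil chemokine gene Cxcl2 was at 0 to 0.08 and 6.93, 19.00 and 6.09 FPKM, and Saa3, a serum amyloid gene, at 0.51 to 1.10 and 433, 2181 and 59.7. With BBR in colitis 15 of the 16 had lower means, 10 at an unadjusted p under 0.05, with a median of −2.05 and none called by limma. Without the colitis mouse receiving BBR numbered 4, 13 had lower means and the median was −1.35. The smallest adjusted p was that of Csf3, at 0.06, 0.30 and 0.04 FPKM in colitis mice receiving BBR (−3.34 ± 0.43, limma, Benjamini-Hochberg adjusted p = 0.0844).

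**Figure D4:**
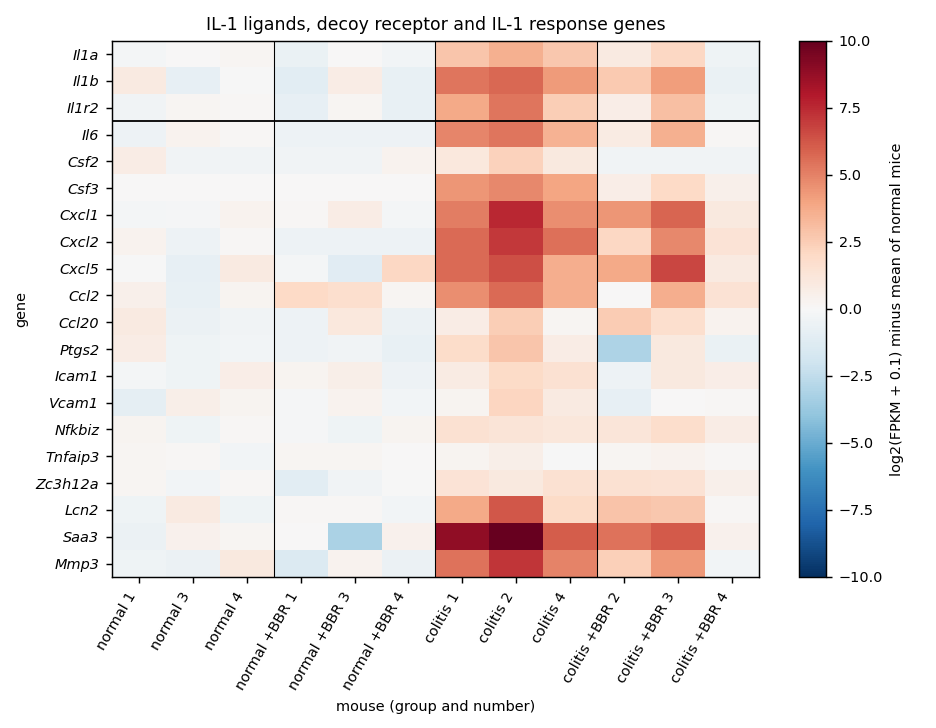
Log2(FPKM + 0.1) of Il1a, Il1b, Il1r2 and the 16 tested IL-1 response genes and Csf2, which was too low to be tested, in each mouse, minus the mean of the normal mice, red for higher and blue for lower. The 3 colitis mice are red in most genes, and the colitis mouse receiving BBR numbered 4 is near the colour of the mice without colitis.

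For IL-18 and IL-33, few response genes were measurable. Ifng was at 0 to 0.14 FPKM and Il5 and Il13 at or under 0.10, all below the filter. Of the 3 that were tested, 2 were called higher in colitis mice. Cxcl9, an interferon-induced chemokine gene, was at 0.53 to 0.62 FPKM in normal mice and 7.39, 31.99 and 4.47 in colitis mice (3.94 ± 0.80, limma, Benjamini-Hochberg adjusted p = 0.0430). Gata3, a transcription factor gene of type 2 lymphocytes, was at 0.04 to 0.08 and 0.95, 1.54 and 0.44 FPKM (2.68 ± 0.53, limma, Benjamini-Hochberg adjusted p = 0.0409). Areg, a repair growth factor gene, was at 17.8 to 36.9 and 42.21, 90.45 and 18.79 FPKM and was not called.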

How the data were processed

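Rectal RNA of 12 mice was sequenced by the authors as 50-base single-end reads on a BGISEQ-500 after ribosomal RNA removal by the methods of the study, while the labels name a TruSeq kit. The authors filtered reads with SOAPnuke 1.5.2, aligned them with Bowtie2 2.2.5 and estimated expression with RSEM 1.2.12, and they deposited a table with a single value for every gene in every mouse, whose unit was taken to be FPKM from the values. The genome build in the submitters' notes is mm9, and positions and sequences given here are from GRCm38 annotation, matched by symbol. Groups and mouse numbers were taken from the sample labels.

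The model was fitted to log2(FPKM + 0.1) by limma 3.58.1 under R 4.3.3, with group means, a trend of the spread on mean expression and Benjamini-Hochberg adjustment over 15315 genes. The code of the fit was also run on simulated data, which checks the code and not the calls made here. Ratios were tested by exact permutation of the colitis label within BBR states (400 arrangements, smallest p 0.005). Python 3.11.15 (pandas 2.3.3, NumPy 2.4.6) was used for positions, ratios and motifs, and matplotlib 3.10.9 for the figures. The table holds no read counts, so depth was estimated from the steps of low values of genes with 1 transcript.

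The text names all 9 members, the called genes of each pathway list with up to 4 others of large log2 fold change, lists of 8 or fewer genes in full, and the 3 genes most like each member. Members and lists were chosen with earlier results of these data known. Alternatives were other pseudocounts, filters and scalings, no trend, a fit of the compared groups alone, blocks and left-out mice. Scaling alternatives for the lists, and the lists without 1 mouse, were chosen after seeing the data.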

Additional observations from a re-analysis of the deposited data

How the results depend on the processing

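The number of members called by limma between colitis and normal mice was 3, and it was 0 with a pseudocount of 0.01, 0 with a filter at a mean of 1 FPKM, where Il1a was no longer tested, 1 with no filter and 0 to 3 with 1 mouse left out. Over all genes the count went from 165 to 91 with the pseudocount of 0.01, 71 with the higher filter, 488 with the compared groups alone, 804 with the mice numbered 1 to 3 alone and 1412 with a block for the mice numbered 4, and from 11 to 211 with 1 mouse left out. For colitis mice against normal mice, both receiving BBR, the members called were 0, and 1 with the mice numbered 1 to 3 alone and 0 to 3 with 1 mouse left out. The count was 0 to 1 for BBR in colitis and 3 to 5 over both BBR states with 1 mouse left out. The cause was not tested. Depth limits the low members: Il1a and Il1r2 were each under the worth of 3 reads in 1 mouse, and their levels in mice without colitis rest on few reads. Il1b was under it in 0 mice, but was as low as 0.19 FPKM without colitis, where 3 reads give 0.117 to 0.176.

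The ratios kept their direction under every alternative run. They lost their call with the mice numbered 1 to 3 alone (−4.10 for Il1rn to Il1b, 4.03 for Il1r2 to Il1r1 and 2.67 for Il18bp to Il18, with adjusted p of 0.0833, 0.0833 and 0.111 by exact permutation, where p cannot go below 0.0556). They also lost it within mice without BBR (−4.34, 3.87 and 3.46), where each had p = 0.1 by exact permutation, the smallest possible. Within mice receiving BBR (−2.55, 2.29 and 1.15), p was 0.2, 0.2 and 0.5 by exact permutation, above that smallest value. Fewer mice were used in each of these settings. With a pseudocount of 1 the ratio differences were −2.37, 1.88 and 2.16, all still called. With 1 mouse left out they were −3.95 to −3.05, 2.65 to 3.63 and 1.71 to 2.66.

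Directions that turned were all of members that were not called in that comparison. Between colitis and normal mice Il1r1 was 0.0073 with a pseudocount of 1, 0.38 after quantile normalization, 0.33 after median centring and −0.28 to 0.39 with 1 mouse left out, and Il18 was 0.28 after median centring and −0.54 to 0.27 with 1 mouse left out. With BBR in colitis Il18bp was 0.30 with the mice numbered 1 to 3 alone and −1.45 to 0.31 with 1 mouse left out, Il1rn −0.84 to 0.10 and Il18 −0.13 to 0.68. With BBR in normal mice, leaving out 1 mouse gave −0.92 to 0.091 for Il1b, −0.59 to 0.015 for Il18, −0.24 to 0.39 for Il33 and −1.18 to 0.27 for Il1rl1. For colitis among mice receiving BBR, Il1rn was 0.31 after median centring and −0.47 to 0.28 with 1 mouse left out, and Il1rl1 was 0.32 after quantile normalization, 0.20 after median centring and −1.35 to 0.67 with 1 mouse left out. Over both BBR states Il1r1 was 0.11 after quantile normalization and 0.023 after median centring, and Il18 −0.040 to 0.37 with 1 mouse left out.

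With the mouse number as a replicate block, 4 members were called between colitis and normal mice (734 genes in all), with Il1r2 gained (limma, Benjamini-Hochberg adjusted p = 0.0269), 4 over both BBR states, with Il33 lost (limma, Benjamini-Hochberg adjusted p = 0.114), and none elsewhere. Under the replicate block Il1r1 was 0.092 between colitis and normal mice, and the ratios were −3.53, 2.94 and 2.32, with no test. With a block for the mice numbered 4 instead, Il1r2 was again gained in the first comparison, the 5 members over both BBR states were all called, and none was called elsewhere. Deviations from the group means correlated at 0.34 on average for the same number (0.0777 to 0.751 over 13 pairs) and −0.10 for different numbers, at 0.50 between the mice numbered 4 (0.357 to 0.751), and at 0.21 for the same and 0.19 for different numbers among the rest, so the numbers were not taken as pairs.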
